A study of Danio rerio with 68 samples.

Results

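The genes described here belong to bone and scale formation in zebrafish. They are the transcription factors runx2a, runx2b, runx3 and sp7, the matrix proteins bglap and spp1, the phosphatase entpd5a and the collagen cross-linking enzymes loxl2a and loxl2b. They were taken by gene symbol from the table of counts, as 9 of its 32677 genes. Of these, 7 had a row under their own symbol. The row for bglap carried an older clone name and was paired with that symbol by its gene identifier. For entpd5a the row named ENTPD5 (1 of 2) was used, because the other copy, entpd5b, has a row of its own. The table does not state that this row is entpd5a, so it is called ENTPD5 (1 of 2) below.

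Zebrafish skin carries scales, thin plates of mineralised collagen that sit in the dermis and are made by cells related to osteoblasts, the bone-forming cells. In vertebrates Runx2 commits cells to the osteoblast lineage, and Sp7, also called osterix, acts after it in their maturation. Mature cells then secrete type I collagen, osteocalcin (bglap) and other matrix proteins, cross-link the collagen and mineralise it, and osteoclasts resorb it.

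RNA was sequenced from skin, brain and liver of 24 male zebrafish, as 68 libraries. The rotenone groups held fish of 36 months exposed to 3.75 nM of this inhibitor of mitochondrial complex I for 3 weeks or for 8 weeks. Control fish of 36 and of 12 months were kept for the same times, in tanks given the solvent DMSO according to the protocol, while their sample records list no treatment. No fish of 12 months received rotenone. In skin and in brain the rotenone groups held 5 fish at 3 weeks and 6 at 8 weeks. The 36-month controls numbered 3 and 4, and the 12-month controls 3 and 3. The same groups in liver held 4 and 6, 2 and 3, and 2 and 3 fish. A fish keeps its skin and brain number in the liver. Each library is a whole-tissue sample from 1 numbered fish. Rotenone was added to tanks, and which fish shared a tank is not stated in the labels, so fish of a group may share one. In such tissue samples fewer cells of a type cannot be told apart from less RNA per cell.

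Total counts per library lay between 24.3 and 34.4 M in skin, between 24.1 and 54.9 M in brain and between 28.7 and 47.3 M in liver. All 11 markers of keratinocytes, the main cells of the epidermis, had a median of at least 1 CPM (a count scaled to library size) in skin, against 4 in brain and 5 in liver. CPM values of single genes given below also carry TMM factors. All 16 neural markers reached that level in brain and all 12 hepatocyte markers in liver. Of the neural markers 8 also reached it in skin and 2 in liver. Of the hepatocyte markers 11 also reached it in skin and 4 in brain. Skeletal muscle genes varied in skin, where they took between 0.534% and 11.9% of counts, and the liver of control fish 4 of 36 months and 8 weeks held 2.45% of counts in intestinal markers, against at most 0.0698% in every other liver. A separate fit left out 5 libraries that stood apart in earlier work on these data, and its result stands beside the main counts it changes.

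By another measure 4 fish stood apart in all of their 12 libraries, and all 4 had received rotenone. They are fish 4 of 3 weeks and fish 2, 3 and 5 of 8 weeks. The brain of fish 4 of 3 weeks is also one of the 5 libraries above. The unnamed gene BX511034.1 had at most 1 count in each of these libraries and at least 7 in each of the other 56, and CABZ01084616.1 had at most 3 against at least 18. The gene fam189a2 ran the other way, with at least 482 counts in these libraries and at most 289 in the rest. The 4 are among 11 rotenone fish, and none of the 13 control fish shows this pattern. What sets these fish apart was not tested, and the main counts for rotenone in skin are given with and without them. This separation was made after the data were seen.

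Per length, runx3 was the most abundant of the 9 genes in skin, with a median of 24 RPKM (reads scaled for gene length and library size, as deposited) over 24 libraries and a range of 7.33 to 60.1 RPKM. It was followed by runx2b at a median of 17.3 RPKM, spp1 at 13.2 RPKM, loxl2b at 12.7 RPKM, loxl2a at 6.58 RPKM and ENTPD5 (1 of 2) at 6.10 RPKM. The osteoblast genes in the strict sense were low, with medians of 2.03 RPKM for bglap, which encodes osteocalcin, and 1.17 RPKM for sp7. The lowest was runx2a, at 0.666 RPKM. The ranges over libraries of any neighbours in this order overlapped.

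In skin all 9 genes differed from brain and from liver (adjusted p from edgeR's quasi-likelihood test, Benjamini-Hochberg over all genes tested, called where under 0.05). Every one was higher in skin than in brain, where 83% of all genes were called, so the count says little about these genes. Against liver, where 75.1% of genes were called, 8 were higher and loxl2a was lower. The widest gap to brain was that of runx3, with a log2 fold change of 7.07 ± 0.31 (± SE here and below). In liver spp1 reached at most 0.128 RPKM, so no fold is given for it. The fitted difference of loxl2a from liver was −1.83 ± 0.39, although its median was higher in skin, and a few livers were far above the rest. In brain the medians stayed under 1.3 RPKM for every member. In liver loxl2a stood out with a median of 3.6 RPKM and a maximum of 83.2 RPKM.

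**Figure D1:**
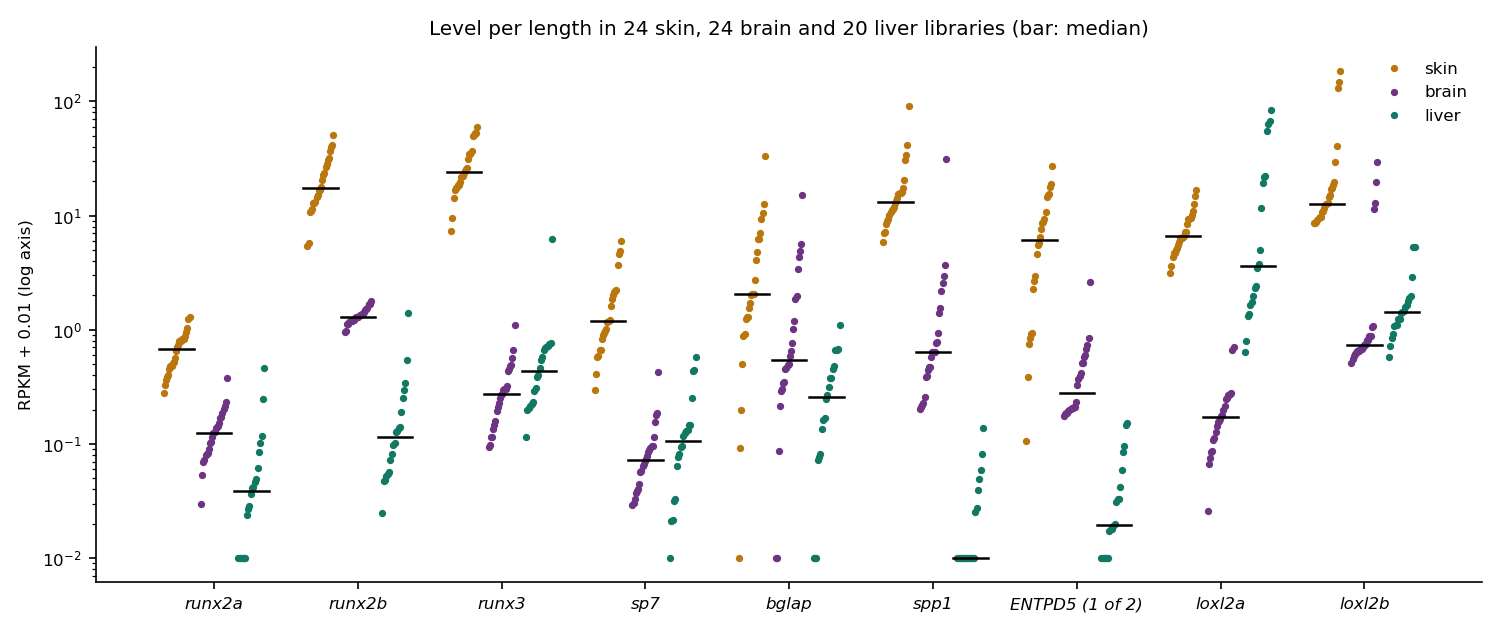
Level per length (RPKM + 0.01, log axis) of the 9 genes, 1 point per library, in 24 skin, 24 brain and 20 liver libraries, with the median as a bar. The skin medians lie above both other tissues for every gene. The liver points of loxl2a spread from 0.626 to 83.2 RPKM, beyond the skin range of 3.11 to 16.7 RPKM at both ends.

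After 8 weeks of rotenone, 4 of the 9 genes were called in skin, where 5.29% of all 22682 genes tested were called. The runt-domain factors runx2b and runx3 and the cross-linking enzyme loxl2b rose, and its paralogue loxl2a fell. Without the 4 fish described above none of the 9 was called by edgeR, where 0.338% of genes were called, although all 4 had an unadjusted p under 0.05 there. That comparison rests on 3 rotenone fish and 4 controls.

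Levels of runx2b, a regulator of osteoblast commitment, were 251, 249, 213, 202, 340 and 320.0 CPM in rotenone fish of 8 weeks, against 120, 104, 155 and 129 CPM in their controls. The groups did not overlap, and the 3 fish set apart, at 249, 213 and 340 CPM, spread over the range of the other 3 and above it. The share of all genes whose groups separate in this way, here and below, is not given. Small groups can separate by chance. The log2 fold change was 1.05 ± 0.26 (adjusted p = 0.0209, edgeR) with all fish and 1.02 ± 0.31 (adjusted p = 0.151, edgeR) without the 4.

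For runx3, a runt-domain factor known in mouse from cartilage maturation, sensory neurons and cytotoxic T cells, the rotenone fish of 8 weeks had 406, 315, 342, 337, 325 and 259 CPM, against 121, 128, 173 and 107 CPM in controls. Again the groups did not overlap and the fish set apart lay within the others. Its log2 fold change of 1.32 ± 0.30 (adjusted p = 0.0163, edgeR) compares with 1.35 ± 0.39 (adjusted p = 0.131, edgeR) without the 4 fish. T cell markers took a larger share of the same libraries, 0.00930% to 0.0165% of counts in rotenone fish against 0.00512% to 0.00898% in controls. Of these 11 markers 9 had a log2 fold change above 0 and 1 was called, lck at 0.83 ± 0.22. Without the libraries that stand apart 3 were called, and without the 4 fish 0, with 8 above 0. Their part in the runx3 result was not tested.

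The enzyme loxl2a oxidises lysines of collagen so that fibres can be cross-linked. It had 6.91, 13.5, 11.7, 10.6, 13.7 and 8.97 CPM in the rotenone fish of 8 weeks, against 20.5, 25.1, 20.4 and 31.2 CPM in controls. All rotenone fish were below all controls. The log2 fold change was −1.16 ± 0.27 (adjusted p = 0.0173, edgeR) and, without the 4 fish, −1.46 ± 0.32 (adjusted p = 0.0578, edgeR). The row LOXL2 (2 of 3), a similar copy between which reads may have been split, had −0.97 ± 0.37 (adjusted p = 0.116, edgeR).

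The paralogue loxl2b had 53.7, 432, 506, 99.3, 636 and 79.1 CPM in rotenone fish 1 to 6 of 8 weeks, against 38.0, 43.3, 48.1 and 33.9 CPM in controls. The 3 highest values are those of the fish set apart, and the other 3 still lie above every control. Its log2 fold change of 2.88 ± 0.64 (adjusted p = 0.0139, edgeR) was 0.93 ± 0.24 (adjusted p = 0.0871, edgeR) without them.

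The other 5 genes were not called at 8 weeks. The log2 fold change was 0.68 ± 0.56 for sp7, 0.42 ± 0.66 for ENTPD5 (1 of 2), 0.33 ± 0.36 for runx2a, 0.23 ± 0.57 for spp1 and 0.22 ± 0.74 for bglap. Rotenone fish had 11.5, 9.09, 4.60, 30.4, 8.38 and 3.97 CPM of sp7, against 6.16, 5.41, 12.8 and 3.95 CPM in controls, and these overlap except for fish 4. In ENTPD5 (1 of 2), where entpd5a, if the row is that gene, is needed for bone mineralisation in zebrafish, 14.8 to 51.8 CPM in rotenone fish stood beside 9.53 to 25.4 CPM in controls.

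**Figure D2:**
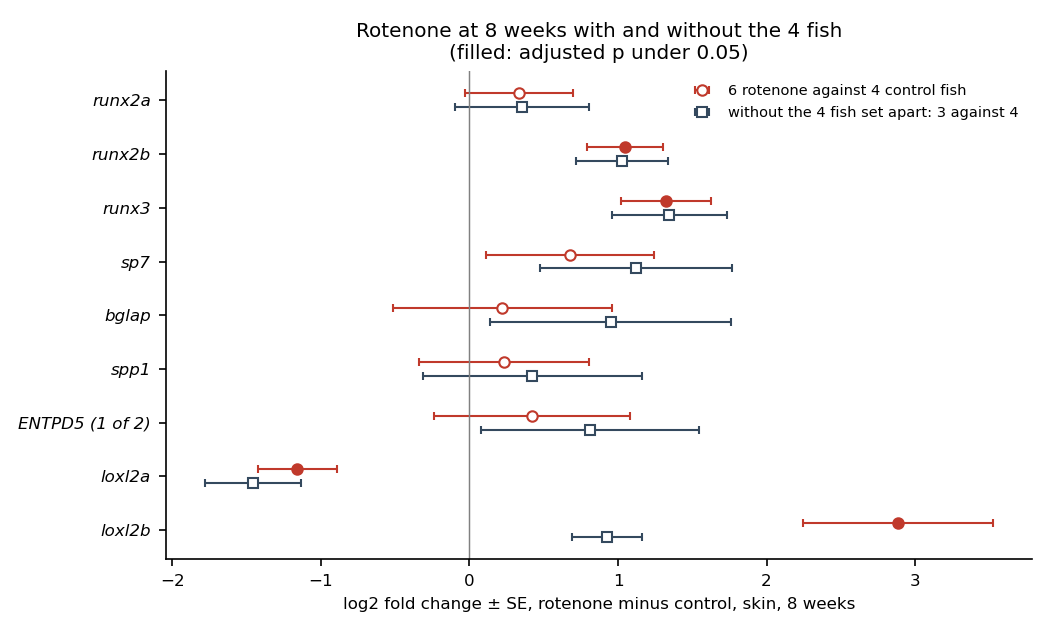
Log2 fold change (rotenone minus control, skin, 8 weeks) with its SE for the 9 genes, from all 6 rotenone and 4 control fish (circles) and from the 3 rotenone fish left when the 4 fish are left out (squares), filled where adjusted p is under 0.05. The estimates lie at 1.05 and 1.02 for runx2b and at 1.32 and 1.35 for runx3, while those for loxl2b lie at 2.88 and 0.93, and none of the squares is filled.

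Single control fish also mattered to these calls. Without control fish 2 of 8 weeks none of the 4 was called, where 1.66% of all genes were, with adjusted p from 0.0503 to 0.0864 (edgeR) and log2 fold changes of 0.96 for runx2b, 1.31 for runx3, −1.14 for loxl2a and 2.91 for loxl2b. Without control fish 1, runx2b and runx3 were lost (adjusted p = 0.0667 and 0.0540, edgeR), and without control fish 4, loxl2a (adjusted p = 0.0532, edgeR). With the replicate number as a block, runx2b was not called (0.90, adjusted p = 0.0967, edgeR). Muscle genes took 0.534% to 1.93% of counts in the rotenone fish and 1.34% to 3.88% in the controls, and none of 27 had a log2 fold change above 0 (median −1.83). Of these 1 was called lower, and 13 were without the libraries that stand apart and 0 without the 4 fish. Of 13 pigment cell genes 3 were above 0 (median −0.72) and 3 were called lower, with 0 called without the 4 fish. Of 12 fibroblast genes 10 were above 0 (median 0.35), and none was called. Among keratinocyte and among macrophage genes 1 each was called lower. The part of these cells in the results was not tested.

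At 3 weeks no gene of the 9 was called between rotenone and control skin by edgeR, DESeq2 or limma-voom, nor was any gene of the whole table by edgeR (0%). In that comparison loxl2a alone had an unadjusted p under 0.05, with a log2 fold change of −1.02 ± 0.30 (adjusted p = 0.285, edgeR). Its levels were 12.8, 13.8, 9.47, 20.7 and 16.6 CPM in rotenone fish, against 37.9, 15.7 and 35.8 CPM in controls, so control fish 2 lay inside the rotenone range. For runx3 the rotenone fish had 146, 127, 173, 152 and 179 CPM, against 64.6, 209 and 53.7 CPM in controls. The same control fish 2 had the highest value there, and the same holds for runx2b, with 87.1, 93.3, 90.2, 74.9 and 91.6 CPM in rotenone fish against 40.3, 103 and 40.4 CPM in controls. Without this 1 control fish 3 of the 9 genes were called, where 1.45% of all genes were, runx3 at 1.40 ± 0.27 (adjusted p = 0.0231), runx2b at 1.12 ± 0.27 (adjusted p = 0.0429) and loxl2a at −1.32 ± 0.30 (adjusted p = 0.0357, edgeR in each case). That fit sets the 5 rotenone fish against control fish 1 and 3 alone. Leaving out control fish 1 or control fish 3 instead gave no call in the whole table (0%). None of the 9 was called at 3 weeks without the 4 fish, with −1.16 ± 0.31 for loxl2a and −2.02 ± 0.78 for ENTPD5 (1 of 2) at an unadjusted p under 0.05. Of the 27 muscle genes 3 were above 0 at 3 weeks, with a median of −1.27, and 26 were, with a median of 0.56, without the libraries that stand apart. Their part was not tested.

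The matrix protein gene spp1, osteopontin, varied between fish at 3 weeks, with 12.1, 145, 8.74, 46.7 and 11.1 CPM in rotenone fish, against 64.2, 21.2 and 55.6 CPM in 36-month controls and 19.1, 19.2 and 14.5 CPM in 12-month controls. Both groups of old fish held values above and near those of young fish, and the log2 fold change for rotenone was −0.07 ± 0.64. The other runx2 copy, runx2a, had 0.659 to 1.88 CPM in rotenone fish and 0.604 to 0.855 CPM in their controls, with 0.70 ± 0.42.

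For loxl2b at 3 weeks, the fish set apart had 147 CPM, against 38.7, 41.2, 31.1 and 33.7 CPM in the other 4 rotenone fish and 31.5, 51.1 and 37.8 CPM in controls. The difference between the rotenone effects at 8 and at 3 weeks was tested itself. None of the 9 genes and no gene of the table was called in it by edgeR (0%), and none of the 9 by DESeq2 or limma-voom. Only loxl2b had an unadjusted p under 0.05 in that test, at 2.34 ± 0.86 (adjusted p = 0.321, edgeR), and without the 4 fish this was 1.07 ± 0.33 (adjusted p = 0.397, edgeR).

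**Figure D3:**
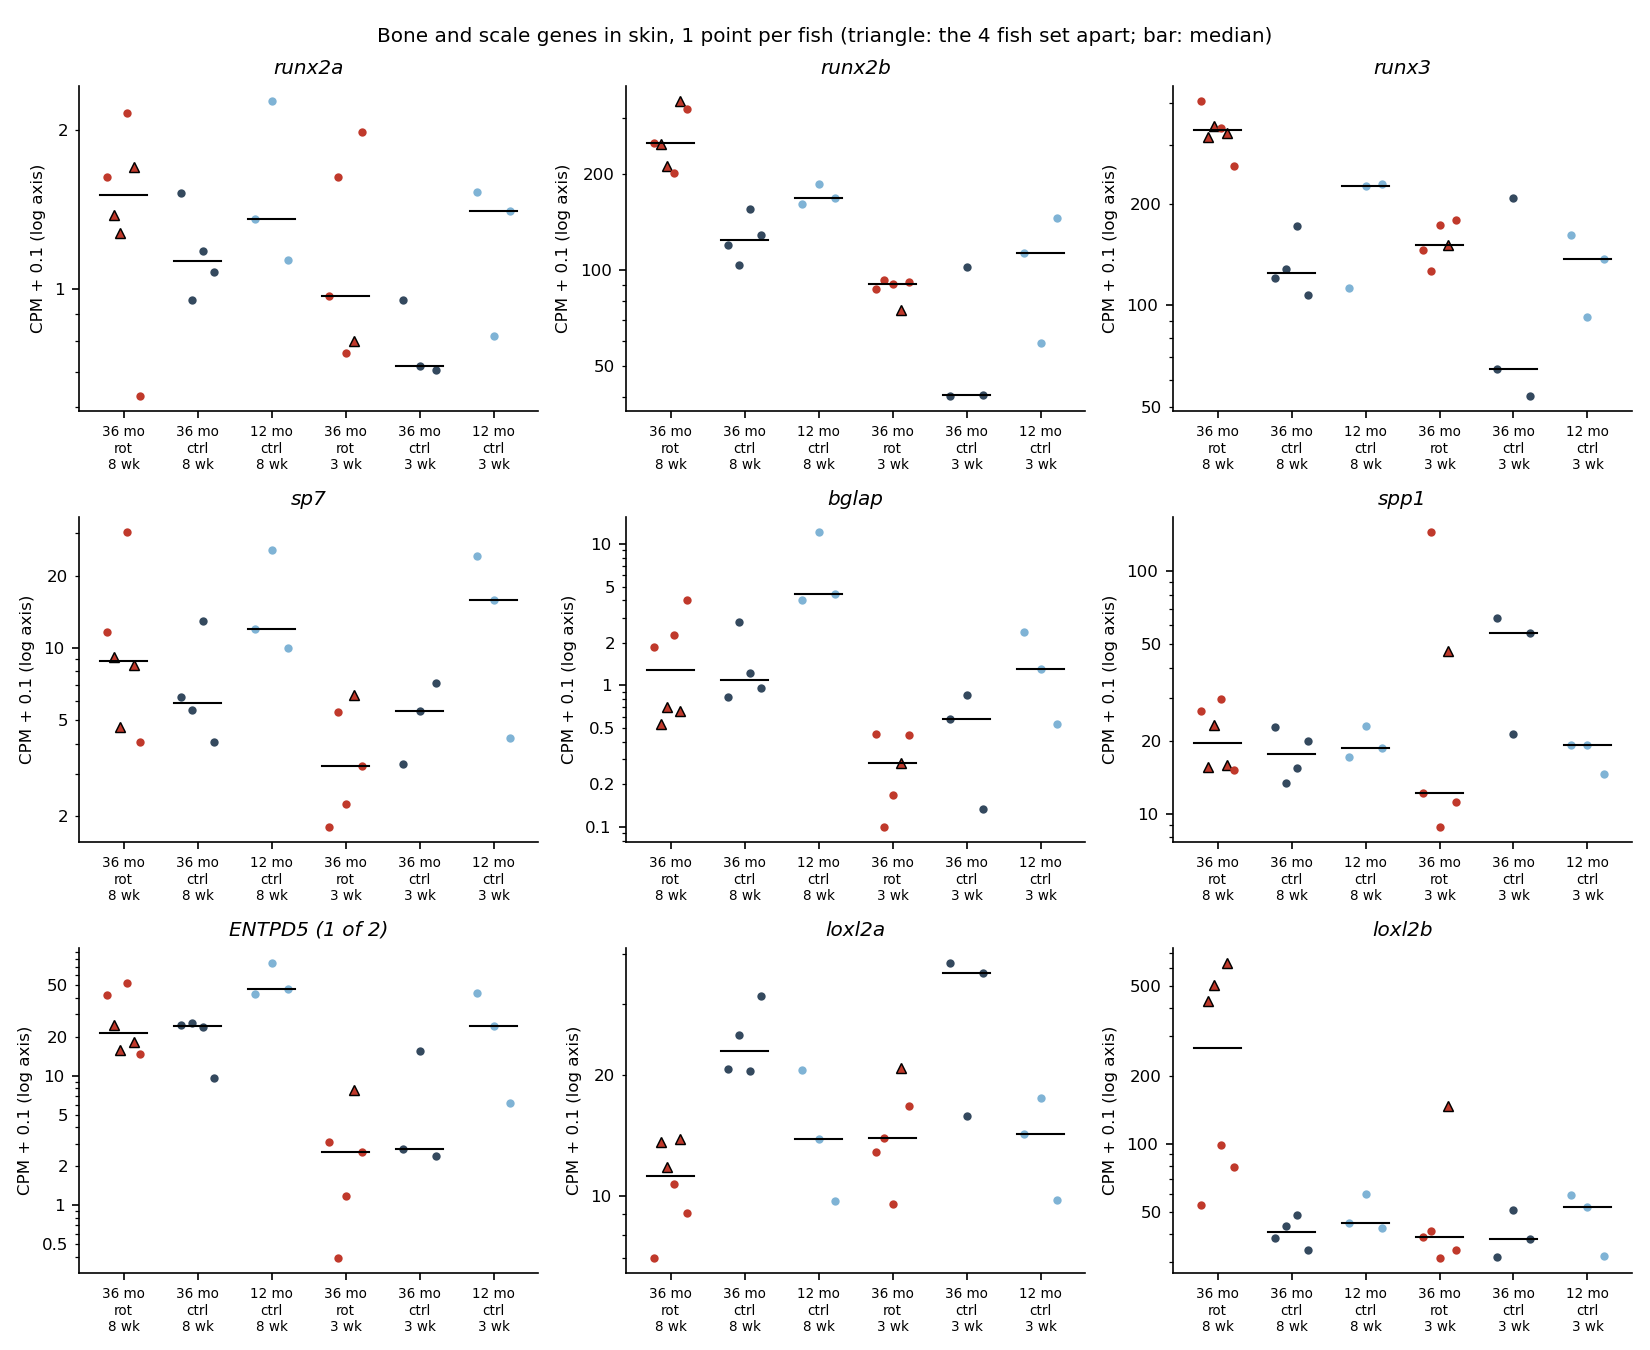
CPM + 0.1 (log axis) of each gene in skin, 1 point per fish in 6 groups, with the group median as a bar and triangles for the 4 fish set apart. All 8-week rotenone fish lie above their controls for runx2b, runx3 and loxl2b and below them for loxl2a, and control fish 2 of 36 months and 3 weeks stands away from its 2 group mates for runx2b, runx3, ENTPD5 (1 of 2) and loxl2a. The share of all genes whose groups separate in this way is not given.

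Between 36 and 12 months, over control fish of both times, 1 of the 9 genes was called in skin, where 2.41% of all genes were. It was loxl2a, which was higher at 36 months with a log2 fold change of 0.92 ± 0.24 (adjusted p = 0.0454, edgeR). Its levels were 37.9, 15.7 and 35.8 CPM at 3 weeks and 20.5, 25.1, 20.4 and 31.2 CPM at 8 weeks in fish of 36 months, against 14.2, 17.5 and 9.69 CPM and 20.5, 13.7 and 9.61 CPM in fish of 12 months. At 8 weeks only 1 young fish reached the level of the old ones. Leaving out any 1 of 9 of the 13 control libraries ended the call. These are fish 1 and 3 of 12 months and 3 weeks, 2 and 3 of 12 months and 8 weeks, 1 and 3 of 36 months and 3 weeks, and 1, 2 and 4 of 36 months and 8 weeks. Without the 4 rotenone fish, which serve only to estimate the spread here, adjusted p was 0.0551 (edgeR).

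Several osteoblast genes had lower averages in old skin without passing the threshold. Osteocalcin (bglap) averaged 0.424 ± 0.365 and 1.35 ± 0.916 CPM at 3 and 8 weeks in fish of 36 months (SD, n = 3 and 4), against 1.31 ± 0.934 and 6.76 ± 4.62 CPM in fish of 12 months (SD, n = 3 each). At 8 weeks its old and young fish did not overlap. Its pooled log2 fold change was −1.97 ± 0.66 (adjusted p = 0.0956, edgeR). Values for ENTPD5 (1 of 2) were 2.64, 15.6 and 2.32 CPM at 3 weeks and 24.5, 25.4, 24 and 9.53 CPM at 8 weeks in old fish, against 43.5, 24.4 and 6.05 CPM and 43.1, 74.8 and 47.2 CPM in young fish. It had −1.62 ± 0.58 (adjusted p = 0.113, edgeR). For sp7 the log2 fold change was −1.32 ± 0.48 (adjusted p = 0.120, edgeR) and for runx2b −0.62 ± 0.21 (adjusted p = 0.106, edgeR).

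The remaining genes had unadjusted p above 0.05 for age, with log2 fold changes of −0.59 ± 0.31 for runx2a, −0.39 ± 0.25 for runx3, −0.25 ± 0.49 for loxl2b and 0.64 ± 0.50 for spp1. DESeq2 also called bglap and ENTPD5 (1 of 2), and limma-voom also called runx2b. The shares of all genes that these 2 methods called are not given here. Control fish 2 of 36 months and 3 weeks again carried weight, since without it 4 of the 9 were called, where 2.07% of all genes were. Lower among them were runx2b at −0.92 ± 0.18, runx3 at −0.83 ± 0.18 and ENTPD5 (1 of 2) at −2.36 ± 0.60, and loxl2a was higher at 1.08 ± 0.22 (adjusted p = 0.0206, 0.0307, 0.0457 and 0.0234, edgeR). Without fish 2 of 12 months and 3 weeks, 2 were called (4.18% of all genes). The age effect did not differ between 8 and 3 weeks for any of the 9 genes past the threshold (edgeR, DESeq2 and limma-voom, 0.00441% of all genes by edgeR), and none had an unadjusted p under 0.05. All 27 muscle genes were above 0 for age, with a median of 1.08 that became 0.39 without the libraries that stand apart, where loxl2a was no longer called (adjusted p = 0.0825, edgeR). Keratinocyte genes were above 0 in 10 of 11, with 2 called higher (1 without the 4 fish and 1 without the libraries that stand apart), while none of 12 fibroblast genes (median −0.37) and none of 11 T cell genes (median −0.39) was above 0, with none called. Their part in the results was not tested.

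The 8-week and 3-week fish are different animals sampled at different times. In control skin 1 of the 9 genes was called between 8 and 3 weeks, where 3.26% of all genes were. This was runx2b, higher at 8 weeks by 0.88 ± 0.22 (adjusted p = 0.0318, edgeR), and the call ended when any 1 of 9 of the 13 control libraries was left out (adjusted p up to 0.0975, edgeR). They are fish 1 and 2 of 12 months and 3 weeks, all 3 of 12 months and 8 weeks, 1 and 3 of 36 months and 3 weeks, and 1 and 3 of 36 months and 8 weeks. Without the libraries that stand apart runx2b had 0.62 (adjusted p = 0.157, edgeR), where 1.2% of all genes were called. Its adjusted p was 0.0641 (edgeR) without the 4 rotenone fish, where 1.35% were. With the groups of the contrast alone it was 0.150 (edgeR). Without control fish 2 of 36 months and 3 weeks the difference was 1.18 ± 0.18 (adjusted p = 0.00106, edgeR), and runx3 and ENTPD5 (1 of 2) were called as well, at 0.85 and 2.12 (6.92% of all genes). In rotenone skin 5 of the 9 were called between 8 and 3 weeks, where 13.4% of all genes were. They all were higher at 8 weeks, namely ENTPD5 (1 of 2), bglap, loxl2b, runx2b and runx3. Control skin had estimates above 0 for these genes too. In the fit without the 4 fish they were 2.01 ± 0.64 for bglap and 1.38 ± 0.56 for ENTPD5 (1 of 2). There runx3 had 0.40 ± 0.28 and loxl2b 0.03 ± 0.17, and none of these was called. With all fish DESeq2 called bglap in control skin as well (2.01, adjusted p = 0.0301, DESeq2).

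Rotenone fish had 42.2, 24.7, 15.9, 51.8, 18.1 and 14.8 CPM of ENTPD5 (1 of 2) at 8 weeks, against 2.97, 0.291, 1.08, 7.70 and 2.48 CPM at 3 weeks. No fish overlapped, and the log2 fold change was 3.27 ± 0.70 (adjusted p = 0.00509, edgeR). Without the 4 fish it was 4.43 ± 0.82 (adjusted p = 0.0125, edgeR). For bglap the 8-week fish had 1.78, 0.437, 0.606, 2.19, 0.562 and 3.90 CPM, against 0.356, 0, 0.0694, 0.184 and 0.349 CPM at 3 weeks. These are few reads, and the groups did not overlap. Its log2 fold change was 3.02 ± 0.81 (adjusted p = 0.0178, edgeR), and it was called without the 4 fish too (3.74, adjusted p = 0.0346, edgeR). In the fit without the 4 fish 3.34% of all genes were called. Also called with and without them were runx2b, at 1.59 ± 0.24 and 1.51 ± 0.31, and loxl2b, at 2.37 ± 0.57 and 1.1 ± 0.24, whereas runx3, at 1.09 ± 0.28 (adjusted p = 0.0139, edgeR), was not called without them (1.1 ± 0.38, adjusted p = 0.117, edgeR). The osteoblast factor sp7 had 1.61 ± 0.54 (adjusted p = 0.0530, edgeR). With a block for the replicate number bglap was not called (2.53, adjusted p = 0.0509, edgeR), nor with limma-voom (2.32, adjusted p = 0.171), and DESeq2 also called sp7. Leaving out rotenone fish 4 of 3 weeks, 3 of 8 weeks or 6 of 8 weeks brought sp7 under the threshold, at 1.77 to 1.88. In the same contrast none of 27 muscle genes was above 0 and 5 were called lower (8 without the libraries that stand apart, 0 without the 4 fish). In each of the 3 fits 3 of 12 fibroblast genes were called higher, but not always the same ones. They were col6a1, col6a2 and lum without the 4 fish, and col6a1, col6a2 and col6a3 without the libraries that stand apart. The part of muscle and fibroblast genes was not tested.

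**Figure D4:**
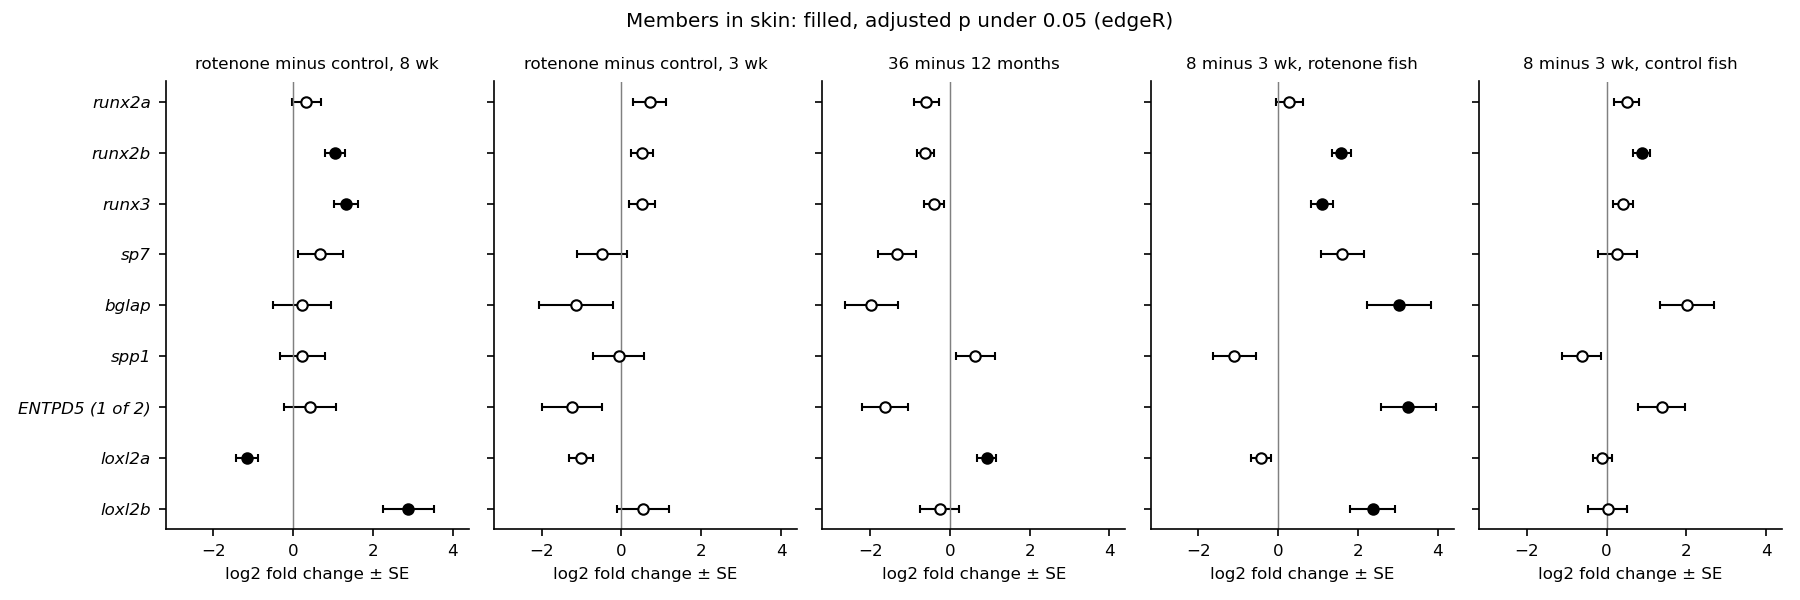
Log2 fold change with its SE for the 9 genes in 5 contrasts of skin, filled where edgeR's adjusted p is under 0.05. The rotenone fish hold 5 filled points between 8 and 3 weeks, the 8-week rotenone contrast 4, and the age and control-time contrasts 1 each. Contrasts that share a control group are not independent of each other.

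Other genes of scale and bone formation were followed as lists. After 8 weeks of rotenone none of 20 matrix genes, 16 mineralisation genes and 27 genes of collagen processing was called in skin. Of 20 transcription factors 3 rose, msxc by 1.17 ± 0.26, sox9b by 0.87 ± 0.22 and sox9a by 0.86 ± 0.25 on the log2 scale, and of 32 signalling genes 4 rose. These were the Hedgehog receptor ptch1 (1.003 ± 0.18), the Wnt target axin2 (0.70 ± 0.14), and edar (1.16 ± 0.33) and edaradd (0.83 ± 0.21), the receptor and adaptor of ectodysplasin, a signal that scales need to form. Among 21 osteoclast genes itgb3a rose (0.70 ± 0.18). Beside these counts stands the 5.29% of all genes called. Without the 4 fish only ptch1 was called among all these genes (0.338% of all genes). Without the libraries that stand apart 1 of 15 mineralisation genes, abcc6a, was called too, and of the transcription factors msxa and mef2ca were, which made 4 higher and 1 lower (7.95% of all genes). The median log2 fold change was 0.57 for the matrix list and 0.53 for the signalling list, against −0.01 over all genes tested. At 3 weeks no gene of these 6 lists was called, and 3 of 20 matrix genes were above 0 (median −0.26).

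Between 8 and 3 weeks in rotenone skin 9 of the 20 matrix genes rose and none fell, where 5.33% of all genes rose and 8.12% fell, with a list median of 1.45 beside 0.02 over all genes. Examples are col10a1 at 4.74 ± 0.96, the type I collagen genes col1a1b at 3.54 ± 0.71, col1a1a at 3.42 ± 0.71 and col1a2 at 3.08 ± 0.64, and sparc, a collagen-binding matrix protein, at 1.94 ± 0.47. Without the 4 fish, where 3.34% of all genes were called, 11 of the 20 rose. Of the mineralisation genes 3 of 16 rose, enam, abcc6a and phospho1, with values of 5.30 ± 1.1, 1.44 ± 0.26 and 1.78 ± 0.57. Of 32 signalling genes 10 rose, among them shha at 2.01 ± 0.34, lef1 at 1.43 ± 0.17 and ihha at 1.76 ± 0.36. Of 20 transcription factors 4 rose and twist3 fell, by 0.90. In the osteoclast list 3 of 21 fell, ca2 by 1.66, ocstamp by 2.59 and mmp9 by 1.5, and none rose. In collagen processing 3 of 27 rose, with bmp1b at 1.92 ± 0.44 and loxl4 at 1.34 ± 0.42, and 1 fell. Without the 4 fish the calls were 2 of 16 for mineralisation, 2 of 20 for transcription factors, 8 of 30 for signalling and 4 of 27 for collagen processing, all higher, and 1 of 21 osteoclast genes, ca2, was lower. Without the libraries that stand apart (16.4% of all genes) 3 transcription factors rose and 2 fell, and 1 osteoclast gene rose beside 3 that fell. Whether the time difference itself differed between rotenone fish and 36-month controls is the test of 8 against 3 weeks given above, in which no gene was called.

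For age the lists held few calls, beside 2.41% of all genes, and so few describe single genes and not a list. Among 20 matrix genes 1 fell at 36 months, col1a2 by 2.08 (SE 0.55, adjusted p = 0.0492, edgeR), and 19 of the 20 were below 0, with a median of −0.86 against −0.03 over all genes. The signalling gene ptch1 fell by 0.59, and the osteoclast genes ocstamp (3.20 ± 0.72) and ca2 (0.92 ± 0.23) rose. No mineralisation gene, transcription factor or collagen processing gene was called. Without the libraries that stand apart (1.12% of all genes) neither col1a2 nor ca2 was called, and without the 4 fish (1.26%) neither col1a2 nor ptch1 was. In control skin between 8 and 3 weeks (3.26% of all genes), slc20a1b and ca2 fell by 0.80 and 1.3, and lef1 rose by 0.81. Of these slc20a1b was not called without the 4 fish (1.35% of all genes) or without the libraries that stand apart (1.2%).

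Across the 24 skin libraries the genes whose log2 CPM was most like that of sp7 were tmem119a (Pearson r of 0.94), smpd3 (0.93), slc8a4b (0.91), loxl4, COL22A1, col27a1a, MMP16 (2 of 2) and ADAMTS2 (2 of 2), down to an r of 0.88. For tmem119a the r was 0.92 after group means were removed, so the likeness was also present within groups. The same search for ENTPD5 (1 of 2), made after values were seen, gave col11a2 (0.94), nid2b (0.93), col1a1a (0.92) and col1a1b (0.92). After group means were removed these were 0.86, 0.79, 0.84 and 0.83. That for bglap gave nid2b (0.86) and itgbl1 (0.85), which fell to 0.69 and 0.64 after group means were removed. For spp1, which osteoblasts, osteoclasts and macrophages all secrete, it gave acp5a (0.89) and timp2b (0.87). By ranks these were 0.69 and 0.73, and rotenone fish 2 of 3 weeks lay far above its group in spp1 (145 CPM). For runx2b and runx3, called at 8 weeks, the search gave ralgps2 (0.93) and acvr2a (0.90), and KSR1 (2 of 2) (0.93) and WDR81 (0.92). After group means were removed these were 0.73, 0.74, 0.90 and 0.75. The best match was MUC16 (2 of 3) for runx2a (0.80), glsb for loxl2a (0.82) and TSTA3 (2 of 3) for loxl2b (0.86, by ranks 0.41). These correlations describe points that share libraries and their scaling, and the 8 best of many genes are high by selection.

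In brain none of the 9 genes was called between rotenone and control fish at 8 weeks by edgeR, where 0.0304% of all genes were, or by limma-voom. DESeq2 called 1, loxl2b, which alone had an unadjusted p under 0.05 in edgeR. It had 2.49, 43.6, 67.5, 2.27, 102 and 3.07 CPM in the rotenone fish, against 2.25, 1.79, 2.41 and 2.15 CPM in controls. Only the 3 fish set apart were high, and the log2 fold change of 4.09 ± 1.17 (adjusted p = 0.338, edgeR) was 0.28 ± 0.22 (adjusted p = 0.856, edgeR) without the 4. At 3 weeks the fish set apart had 50.3 CPM, against 2.27 to 3.05 CPM in the other rotenone fish and 1.90 to 3.61 CPM in controls, and none of the 9 was called by edgeR (0%), DESeq2 or limma-voom or had an unadjusted p under 0.05. In the liver the 4 fish had 14.8 CPM of loxl2b at 3 weeks and 9.62, 6.59 and 19.5 CPM at 8 weeks, against 4.99 to 6.46 CPM and 2.68 to 3.80 CPM in the other rotenone fish of these times and 1.73 to 6.54 CPM over the 36-month controls. The row of loxl2b was higher in these 4 fish than in other rotenone fish of the same time in every tissue. The gene fam189a2 had the pattern most like it in brain (Pearson r of 0.96 over 24 libraries, 0.55 by ranks). It is among the genes by which the 4 fish were described above, so this r largely repeats that split.

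**Figure D5:**
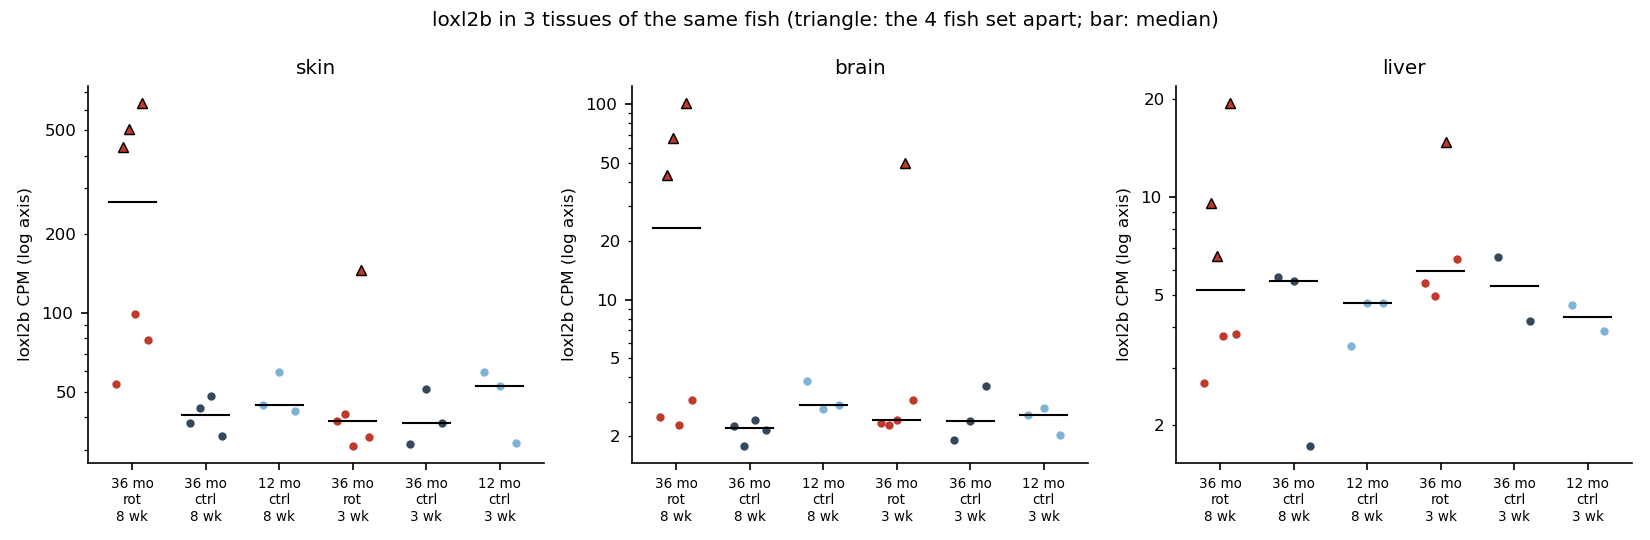
CPM of loxl2b (log axis) in skin, brain and liver, 1 point per fish, with the group median as a bar and triangles for the 4 fish set apart. In brain the 4 triangles lie between 43.6 and 102 CPM and every other fish between 1.79 and 3.83 CPM.

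Between 36 and 12 months 1 of the 9 genes was called in brain, where 1.98% of all genes were called. It was runx3, higher at 36 months by 1.55 ± 0.38 (adjusted p = 0.0379, edgeR; 1.54 and 0.0401 without the 4 fish) and called by DESeq2 and limma-voom as well. Its levels were 1.70, 1.47 and 3.61 CPM at 3 weeks and 1.97, 1.02, 2.90 and 1.97 CPM at 8 weeks in fish of 36 months, against 0.562, 0.822 and 0.690 CPM and 0.927, 0.719 and 0.592 CPM in fish of 12 months. No old fish overlapped the young ones. The call was lost, with adjusted p up to 0.130 (edgeR), when any 1 of 10 of the 13 control libraries was left out, all 6 of 12 months, fish 3 of 36 months and 3 weeks and fish 1, 3 and 4 of 36 months and 8 weeks. Without the last library of the 3-week old fish the log2 fold change was 1.29, the lowest of these fits.

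Of 11 T cell genes 6 were called higher in the same old brains, where 1.98% of all genes were called. The list median was 1.44 against 0.01 over all genes. They include il7r (2.04 ± 0.32), itk (2.29 ± 0.38) and cd8a (3.52 ± 0.81). Summed, they took 0.0119% to 0.0184% and 0.0127% to 0.0164% of counts at 3 and 8 weeks at 36 months, against 0.0104% to 0.0124% and 0.0112% to 0.0133% at 12 months. The genes most like runx3 in brain were jak3 (Pearson r of 0.90 over 24 libraries) and TRBC2 (0.88). After group means were removed these were 0.72 and 0.75. This search too was made after values were seen, and the best of many genes are high by selection. Macrophage genes were called higher in 3 of 15, with 12 above 0 and a median of 0.66. Without the 4 fish 5 were, where 3.19% of all genes were called. Without the libraries that stand apart 6 macrophage and 7 T cell genes were, and the share of all genes in that fit is not given here. The part of these cells in the runx3 result was not tested.

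In liver bglap and spp1 did not pass the filter on low counts, and none of the other 7 was called by edgeR for rotenone at 8 weeks (7.36% of all genes), rotenone at 3 weeks (0%) or age (0.926%). An unadjusted p under 0.05 was seen once at 8 weeks, for runx3, not at 3 weeks, and once for age, for loxl2a. Among these genes loxl2a varied most between fish, with 24.7, 3.49, 37.9 and 187.2 CPM at 3 weeks and 1.84, 115, 3.25, 1.69, 4.01 and 3.80 CPM at 8 weeks in rotenone fish. The 36-month controls had 45.8 and 45.9 CPM at 3 weeks and 160, 163 and 2.98 CPM at 8 weeks, and the 12-month controls had 3.56 and 6.76 CPM and 9.0, 11.9 and 6.52 CPM. All young livers were below 12 CPM, and the old ones spread over both sides of that level. For age the log2 fold change was 3.36 ± 1.38 (adjusted p = 0.217, edgeR), which DESeq2 called. For rotenone at 8 weeks it was −2.33 ± 1.31 (adjusted p = 0.303, edgeR). The limma-voom estimate was −4.87 and was called (adjusted p = 0.00315, limma-voom). Without rotenone fish 2 the log2 fold change was −5.22 ± 1.05 (adjusted p = 0.0128, edgeR). Fish 2 is one of the 4 fish, and without all 4 it was −5.48 ± 1.44 (adjusted p = 0.0757, edgeR). The control liver with intestinal markers is the one at 2.98 CPM, and it held 28.4 CPM of runx3, against at most 5.11 CPM in every other liver. LOXL2 (2 of 3) followed loxl2a over the 20 livers with a Pearson r of 0.99, and reads of these similar copies may have been split.

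The difference between tissues in the rotenone effect at 8 weeks was tested in a fit of all libraries. Between skin and brain none of the 9 was called by edgeR (0.0702% of all genes) or DESeq2, and none had an unadjusted p under 0.05, while limma-voom called runx2b. Between skin and liver 1 was called, where 5.41% of all genes were. It was runx3, with a difference of 3.03 ± 0.72 (adjusted p = 0.00548, edgeR). Without the libraries that stand apart, among them the liver with intestinal markers, this was 0.46 (adjusted p = 0.766, edgeR). With fish as a block it was 2.37 (adjusted p = 0.114, edgeR). With limma-voom it was 0.87 (adjusted p = 0.549), and loxl2a was called instead. Without the 4 fish runx3 (3.48, adjusted p = 0.0240, edgeR) and loxl2a (3.94, adjusted p = 0.0301, edgeR) were called. For age, skin did not differ from brain for any of the 9 by edgeR (0.226%) or DESeq2, with 3 genes at an unadjusted p under 0.05, while limma-voom called runx3. It did not differ from liver for any of the 9 by edgeR (1.77%), DESeq2 or limma-voom, with 2 genes at an unadjusted p under 0.05.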

How the data were processed

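Skin, brain and liver RNA was extracted with QIAzol and made into TruSeq libraries, as the labels' protocols say. The authors deposited counts as whole numbers for each gene, and RPKM values for the same libraries in a second table. The submitters' processing notes name CASAVA 1.8.2. No source used here gives the aligner, counting program, strand setting or genome build, so overlapping, antisense and near-identical genes are uncertain and no coordinates are printed. RPKM served for levels between genes, and every test used counts.

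Each tissue was fitted with its 6 groups in edgeR 4.0.16 (R 4.3.3), with filterByExpr (minimum count 10, minimum total 15), TMM scaling and the robust quasi-likelihood test, two-sided, Benjamini-Hochberg over all genes tested, threshold 0.05. Groups share one estimate of the spread. Tissue contrasts came from a fit of all 68 libraries without a block for fish, which takes libraries of the same fish as independent. SE is the absolute log2 fold change over the square root of F. Likeness of patterns is Pearson's r of log2 CPM (prior count 2).

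The 9 members, the pathway and marker lists and the rule for named genes (all members, the list genes called or of smallest p, and the 8 genes most like sp7) were chosen with earlier results of these data known. Alternatives were RLE scaling, no filter, DESeq2 1.42.0, limma-voom 3.58.1 with quality weights, groups of a contrast alone, a block, each library left out, and fits without 5 libraries or without 4 fish. The 5 libraries are skin of fish 2 (12 months) and 3 (36 months) of the 3-week controls, brain of rotenone fish 3 and 4 of 3 weeks, and liver of control fish 4 of 36 months and 8 weeks. On simulated counts for rotenone in skin at 8 weeks (22413 genes), 36.4% of 2-fold and 72.7% of 4-fold changes were recovered. The simulation changed a smaller share of genes than the 5.29% called in the real contrast, so these rates need not hold for it. In 109 pairs of replicates counts differed beyond sampling noise (chi-square per gene at least 15.79).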

Additional observations from a re-analysis of the deposited data

Results flagged for a closer look

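Within groups of 4 to 10 fish, 18 of 72 sets of values held a fish far from the rest of its group, with a gap larger than Dixon's 95% limit. For normally distributed values chance alone flags about 1 in 20 groups. The values here were CPM without a log and most of those flagged were high, so chance may flag more. Several sets below share a library. In skin these were sp7 in rotenone fish 4 of 8 weeks (30.4 CPM, next 11.5), spp1 in rotenone fish 2 of 3 weeks (145 CPM, next 46.7), ENTPD5 (1 of 2) in control fish 4 of 36 months and 8 weeks (9.53 CPM, next 24) and loxl2b in rotenone fish 4 of 3 weeks (147 CPM, next 41.2), which is one of the 4 fish set apart. The brain of the last fish was far out for loxl2b too (50.3 CPM, next 3.05), as was its liver (14.8 CPM, next 6.46).

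In brain, rotenone fish 3 of 8 weeks, which is one of the 4 fish set apart, was far above its group for 4 genes at once. These were sp7 (2.15 CPM, next 0.352), spp1 (44.9 CPM, next 4.43), ENTPD5 (1 of 2) (7.14 CPM, next 1.68) and loxl2a (1.47 CPM, next 0.582). Muscle genes took 0.105% of that library, against 0.145% in rotenone fish 4 and at most 0.0449% in every other brain. Their part was not tested. Other brain values were runx3 in rotenone fish 3 of 3 weeks (4.67 CPM) and in rotenone fish 4 of 8 weeks (7.09 CPM), spp1 in control fish 4 of 36 months and 8 weeks (3.90 CPM) and ENTPD5 (1 of 2) in rotenone fish 3 of 3 weeks (2.01 CPM). The brain of rotenone fish 3 of 3 weeks is one of the 5 libraries that stand apart, as is that of rotenone fish 4 of 3 weeks.

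In liver they were runx2a (0.396 CPM) and loxl2a (115 CPM) in rotenone fish 2 of 8 weeks, and runx2b in rotenone fish 3 of 3 weeks (3.49 CPM) and rotenone fish 3 of 8 weeks (10.8 CPM). The rotenone effect on runx3 at 8 weeks was called different between skin and liver in the fit without a block for fish. The difference was 3.03 on the log2 scale (adjusted p = 0.00548, edgeR). It was not called without the 5 libraries (0.46), with fish as a block (2.37) or with limma-voom (0.87).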

How the results depend on the processing

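The counts of members called for skin against brain and against liver, 9 each, stayed the same in all 7 alternatives run, and every called member kept its direction in every alternative. For rotenone in skin at 8 weeks the count of 4 became 0 without the 4 fish, and for age in skin the count of 1 became 0 with no filter, with the groups of the contrast alone, without the 5 libraries and without the 4 fish, 3 with DESeq2 and 2 with limma-voom. For time in control skin the count of 1 became 2 with DESeq2 and 0 with the groups of the contrast alone, without the 5 libraries and without the 4 fish. Counts of 0 became 1 with DESeq2 in brain (rotenone at 8 weeks) and in liver (age), and 1 with limma-voom in liver (rotenone at 8 weeks) and for skin against brain (rotenone at 8 weeks, and age). For rotenone in skin against liver the count of 1 became 0 without the 5 libraries and 2 without the 4 fish (3.34% of all genes). Without the 4 fish 0.338% of all genes were called for rotenone in skin at 8 weeks, 1.26% for age and 1.35% for time in control skin. Without the 5 libraries these shares were 7.95%, 1.12% and 1.2%. Shares for the other alternatives are not given here. Leaving out 1 library at a time gave 0 to 4 calls for rotenone in skin at 8 weeks, where 1.66% to 6% of all genes were called. It gave 0 to 3 at 3 weeks (0% to 1.45% of all genes) and 0 to 4 for age in skin (0.25% to 6.91%). For time it gave 0 to 3 in control skin (0.641% to 6.92%) and 5 to 6 in rotenone skin (9.43% to 14.3%). For age in brain it gave 0 to 1 (0.778% to 1.88%), and for rotenone in liver at 8 weeks 0 to 1 (4.71% to 7.76%). The cause of these changes was not tested, and each such fit also holds fewer fish. Single libraries were not left out of the fits across tissues.

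Within a tissue the replicate numbers did not pair the fish. Correlations of same-numbered deviations ran from −0.44 to 0.15 in 13 skin pairs, from −0.46 to 0.17 in 13 brain pairs and from −0.41 to 0.36 in 10 liver pairs. With the block for replicate number, 3 members were called for rotenone in skin at 8 weeks, 0 for age in skin, 0 for time in control skin and 4 for time in rotenone skin. The shares of all genes called with a block are not given here. Between tissues the fish number does pair libraries (the best match was the same fish for 21 of 24 fish between skin and brain), and with fish as a block the count for rotenone in skin against liver was 0.

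Precision is low for genes at a few counts per library, such as bglap in skin and sp7 in brain, and the age contrast rests on 7 and 6 control fish. Where a p misses the threshold, this does not show that groups are alike.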
